A study of Mus musculus with 3 samples.

Results

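Transcript levels of 10 genes that write, erase or read DNA methylation were examined in effector memory CD4 T cells of the mouse, antigen-experienced helper T cells. The genes were Dnmt1, Dnmt3a, Dnmt3b, Tet1, Tet2, Tet3, Uhrf1, Uhrf2, Mbd1 and Mbd2, matched by their GENCODE M21 symbols among 55536 annotated genes, and all 10 were found. The data are polyA-selected RNA sequencing of primary cells from 1 adult male mouse aged 5 months, of strain B6.SJL-Ptprca Pepcb/BoyJ, a line that carries the Ptprca form of the leukocyte gene Ptprc. The labels give 1 biosample with technical replicates 1, 2 and 3, called libraries 1, 2 and 3 here, and no treatment or second group. How the cells were gated is not stated in the sources at hand. Every SD and p-value below therefore describes the spread between libraries of 1 biosample, not between animals, and an exact permutation test of 3 values against 3 could not go below a p of 0.10.

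DNA methylation in mammals sits mostly on the cytosine of CG dinucleotides. Dnmt3a and Dnmt3b place it on unmethylated DNA, Dnmt1 copies it to the new strand after replication with the help of Uhrf1, which binds hemimethylated DNA, and the Tet enzymes oxidise it as a first step of its removal. Mbd proteins such as Mbd1 and Mbd2 bind methylated CG and bring chromatin complexes such as NuRD. In T cells, Dnmt3a and Tet2 are known as regulators of helper and memory cell fate.

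The libraries held 17474991, 15303615 and 16882311 expected counts on annotated genes, in the order 1, 2 and 3. In total, 11694 genes reached a TPM of 1 (transcripts scaled to a fixed total per library and corrected for length) in every library, the level called detected here. Library 1 stood apart: over the detected genes the median ratio of the highest to the lowest TPM was 1.58 across the 3 libraries and 1.11 between libraries 2 and 3. The difference varied with effective length, the length over which a read can start. From the shortest to the longest of 4 equal groups of detected genes, the median log2 ratio of the TPM in library 1 to the mean of libraries 2 and 3 was 0.13, 0.19, -0.05 and -0.48. All 10 markers of alpha-beta T helper cells were detected, while 4 of 33 markers of other cell types were, with mean TPM values of 20.6 for Cd22, 8.68 for Klrb1c, 8.18 for Cd8b1 and 4.72 for Cd68. The summed TPM of those 33 was 42.0, 63.6 and 55.6 in libraries 1, 2 and 3, and 4 of them had no count. For Cd79a, Ms4a1, Pax5 and Cd8a, which define B and CD8 T cells, the mean TPM was 1.41, 0.230, 0.0700 and 0.0433, and the part of other cells in the results was not tested.

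The start sites of Dnmt1, Dnmt3a and Tet2 are shown first, because these genes have either more than 1 start with reads assigned to it or an unusual CG content. Each window runs from 250 bases before to 50 bases after a RefSeq start on GRCm38.p6, 5′ to 3′ on the gene's strand, with each CG in capitals. RefSeq windows were given for 8 of the 10 genes, 13 windows in all, and Mbd1 and Mbd2 had none. A transcript is named with a window where its annotated start lies within 50 bases of the RefSeq start. The Dnmt1 windows lie on the minus strand at chr9:20959839-20960138 (the start of Dnmt1-202), chr9:20952930-20953229 (Dnmt1-201) and chr9:20952574-20952873 (Dnmt1-203 and Dnmt1-207). The Dnmt3a windows lie on the plus strand at chr12:3806730-3807029 (Dnmt3a-201) and chr12:3891494-3891793 (Dnmt3a-203 and Dnmt3a-205). A further Dnmt3a window, chr12:3806910-3807209 (Dnmt3a-218), overlaps the first and is not printed. Dnmt3a-201 itself starts at 3807030, just past the end of the window named with it. The Tet2 window lies on the minus strand at chr3:133544341-133544640 (Tet2-201 and Tet2-204).
Dnmt1-202 start: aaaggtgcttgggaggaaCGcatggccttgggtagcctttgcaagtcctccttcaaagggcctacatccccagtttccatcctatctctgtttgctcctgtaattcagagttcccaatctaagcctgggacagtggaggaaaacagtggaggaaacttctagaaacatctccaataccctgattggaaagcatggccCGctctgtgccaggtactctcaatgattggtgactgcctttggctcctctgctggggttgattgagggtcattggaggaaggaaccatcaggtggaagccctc
Dnmt1-201 start: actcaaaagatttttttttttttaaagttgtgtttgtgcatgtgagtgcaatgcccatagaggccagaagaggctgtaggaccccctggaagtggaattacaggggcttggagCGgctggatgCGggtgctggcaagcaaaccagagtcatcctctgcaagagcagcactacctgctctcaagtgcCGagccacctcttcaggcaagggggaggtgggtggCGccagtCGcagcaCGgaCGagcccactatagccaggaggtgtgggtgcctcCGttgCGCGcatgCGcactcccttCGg
Dnmt1-203 and Dnmt1-207 start: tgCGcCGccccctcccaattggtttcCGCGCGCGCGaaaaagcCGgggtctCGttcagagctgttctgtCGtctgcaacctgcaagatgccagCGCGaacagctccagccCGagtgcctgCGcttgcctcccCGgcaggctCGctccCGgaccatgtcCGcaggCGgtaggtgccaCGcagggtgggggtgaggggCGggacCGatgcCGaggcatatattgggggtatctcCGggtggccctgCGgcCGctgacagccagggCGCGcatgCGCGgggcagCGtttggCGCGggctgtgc
Dnmt3a upstream start: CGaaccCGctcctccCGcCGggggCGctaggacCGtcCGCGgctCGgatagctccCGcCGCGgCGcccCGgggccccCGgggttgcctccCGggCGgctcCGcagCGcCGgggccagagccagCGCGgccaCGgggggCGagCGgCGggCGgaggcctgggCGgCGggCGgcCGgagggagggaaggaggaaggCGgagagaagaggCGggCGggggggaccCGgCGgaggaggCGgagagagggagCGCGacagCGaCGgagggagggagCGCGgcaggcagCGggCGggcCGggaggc
Dnmt3a downstream start: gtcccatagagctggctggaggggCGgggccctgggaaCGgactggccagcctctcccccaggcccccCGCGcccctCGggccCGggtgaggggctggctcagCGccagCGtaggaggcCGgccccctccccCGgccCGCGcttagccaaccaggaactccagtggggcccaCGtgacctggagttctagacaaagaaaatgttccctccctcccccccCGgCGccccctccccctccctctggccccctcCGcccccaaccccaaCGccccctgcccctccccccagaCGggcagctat
Tet2 start: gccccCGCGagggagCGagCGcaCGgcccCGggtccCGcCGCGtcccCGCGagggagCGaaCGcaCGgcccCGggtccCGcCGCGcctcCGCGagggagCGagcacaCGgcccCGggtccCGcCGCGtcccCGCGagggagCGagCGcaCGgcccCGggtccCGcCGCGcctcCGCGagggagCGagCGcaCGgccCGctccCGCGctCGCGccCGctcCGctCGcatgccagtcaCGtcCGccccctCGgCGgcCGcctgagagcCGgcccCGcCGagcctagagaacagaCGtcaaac

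The windows differed in how many CG they held. The start of Dnmt1-202 held 2 CG, and 85.9% of all 32851 mouse promoter windows of the same length held as many or more. The start of Dnmt1-201 held 12 and the window of Dnmt1-203 and Dnmt1-207 held 33, against a median of 7 over all windows. Dnmt3a had 46 CG in the window named with Dnmt3a-201, 47 in that of Dnmt3a-218 and 18 in that of its downstream start. The Tet2 window held 57, a number that 0.152% of all windows reached, in repeats that are visible in its letters. The hexamer GGGCGG or its reverse complement, a letter match to the GC box, was found in 11 of the 13 windows and in 35.7% of all windows. These are descriptions of the letters, and no binding or methylation was measured here.

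The 10 genes covered a wide range, from Mbd2 at a mean TPM of 435 ± 103 to Tet1 at 0.957 ± 0.0896 (SD, n = 3). Of the 10, 9 were detected, and Tet1 was not. The deposited tables also give an interval for each TPM. The TPM itself lay outside it in every library for 4 of the 10, below it for Tet1 and above it for Uhrf2, Mbd1 and Mbd2. It lay outside in at least 1 library for 7 and inside in every library for 3. The share over all genes is not given here, so this is not read as a trait of these genes. The Tet1 intervals were 1.07 to 3.16, 1.29 to 3.84 and 1.09 to 3.50, all above the detection threshold, so the call for Tet1 depends on which deposited value is used. Among 22028 annotated protein-coding genes Mbd2 ranked 305 and Uhrf2 515, whereas Tet2, Dnmt1, Dnmt3a, Mbd1 and Tet3 ranked between 3435 and 4691. Uhrf1 ranked 8563, Dnmt3b 9047 and Tet1 10396. The median TPM was 40.3 over the 9 detected genes, beside 24.1 over all detected genes. In these bulk libraries fewer cells that carry a transcript and less of it per cell cannot be told apart.

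In the order of mean TPM, Mbd2 stood first and Uhrf2 second in every library, and their ranges over the libraries did not overlap. The gap between them was uneven: Mbd2 was 3.03-fold above Uhrf2 in library 1 and 1.10-fold above it in library 2. Tet2, Dnmt1, Dnmt3a, Mbd1 and Tet3 followed, and each neighbouring pair among these 5 overlapped over the libraries. Dnmt3a shows how loose that order was, since it took place 3 in library 1 and place 7 in libraries 2 and 3. Uhrf1 and Dnmt3b came next and overlapped, and Tet1 was last in every library. Uhrf2 and Tet2, Tet3 and Uhrf1, and Dnmt3b and Tet1 did not overlap.

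**Figure D1:**
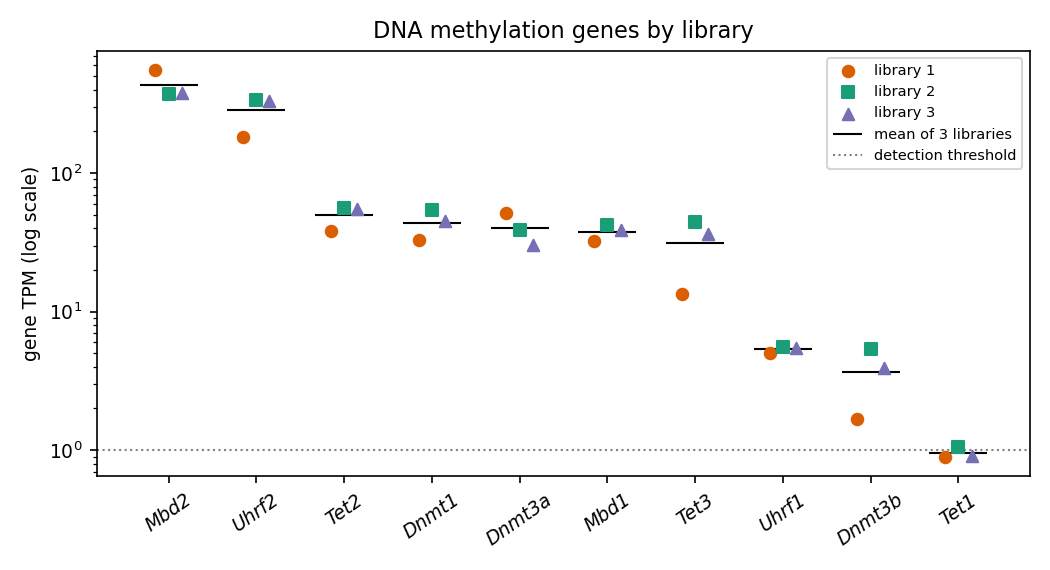
Gene TPM on a log scale for the 10 DNA methylation genes, with 1 point per library, a bar at the mean of the 3 libraries and a dotted line at the detection threshold of 1 TPM. Mbd2 and Uhrf2 stand above the other genes in every library, 5 genes crowd between means of 31.5 and 49.5, and Tet1 lies near the dotted line.

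Dnmt1, the maintenance methyltransferase (chr9:20907209-20959888, minus strand), reached 33.15, 53.77 and 44.95 TPM, with library 1 given first here and below. The lowest value was in library 1, and the mean was 44.0 ± 10.3 (SD, n = 3). Its 1737, 2238 and 2265 expected counts differed between the libraries beyond counting error (chi-square test of homogeneity, adjusted p = 3.13e-34). Libraries 2 and 3 differed as well when tested alone (chi-square test, adjusted p = 0.0274).

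Dnmt3a, a de novo methyltransferase (chr12:3806007-3914443, plus strand), ran the other way. Its TPM was 51.25, 39.14 and 30.50, so library 1 was the highest, and the mean was 40.3 ± 10.4 (SD, n = 3). The effective length was 1908 in library 1 and 2520 and 2514 in libraries 2 and 3. The log2 ratio of library 1 to the mean of libraries 2 and 3 was 0.57 by TPM. By counts scaled to library totals alone it was 0.21, so library 1 stayed the highest but by less. The counts of 1051, 875 and 794 differed between libraries (chi-square test, adjusted p = 8.93e-07). That call was lost without library 3 (chi-square test, adjusted p = 0.315) and held between libraries 2 and 3 alone (chi-square test, adjusted p = 0.000914). Dnmt3b, the other de novo enzyme (chr2:153649450-153687730, plus strand), was low, with TPM values of 1.69, 5.38 and 3.92 and counts of 47, 127 and 112. Library 1 was again the lowest for Dnmt3b (chi-square test, adjusted p = 9.30e-11).

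Within the 3 methyltransferases, Dnmt1 and Dnmt3a exchanged places between libraries by gene TPM. Dnmt1 made up 38.5%, 54.7% and 56.6% of their summed TPM and Dnmt3a 59.5%, 39.8% and 38.4%. The ratio of Dnmt3a to Dnmt1 was 1.55 in library 1 and 0.728 and 0.679 in libraries 2 and 3. By transcripts annotated with a complete coding sequence they did not: Dnmt1 was 2.20-fold, 4.58-fold and 5.56-fold above Dnmt3a. Expected counts, which weigh long transcripts more, also put Dnmt1 above Dnmt3a in every library. They were 1737 against 1051, 2238 against 875 and 2265 against 794. Dnmt3b made up between 1.96% and 5.47%.

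Uhrf1 and Uhrf2 are related proteins that bind hemimethylated DNA. Uhrf1, the cofactor of Dnmt1 (chr17:56303321-56323486, plus strand), had TPM values of 5.04, 5.53 and 5.47 and a mean of 5.35 ± 0.267 (SD, n = 3). These values lay close together, and a difference in its 174, 153 and 152 counts was not detected (chi-square test, adjusted p = 0.613). Uhrf2 (chr19:30030513-30093722, plus strand) had 182.80, 339.47 and 329.78, with library 1 far below the other libraries. Its 4588, 6949 and 7673 counts differed (chi-square test, adjusted p = 3.47e-233), while a difference between libraries 2 and 3 alone was not detected (chi-square test, adjusted p = 0.981). Uhrf2 was 36.3-fold above Uhrf1 in library 1 and 61.4-fold and 60.3-fold above it in libraries 2 and 3, and it made up 98.0% ± 0.616 of their summed TPM (SD, n = 3). By complete coding transcripts Uhrf2 was 11.4-fold, 21.1-fold and 24.2-fold above Uhrf1.

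Of the Tet enzymes, Tet2 (chr3:133463679-133545139, minus strand) was highest by gene TPM in each library, with values of 37.98, 55.65 and 54.80. Library 1 was the lowest and the other libraries lay close together, with a mean over all of 49.5 ± 9.97 (SD, n = 3). The counts of 1135, 1738 and 1915 differed (chi-square test, adjusted p = 4.65e-60). Tet3 (chr6:83362373-83459084, minus strand) had 13.45, 44.54 and 36.59, which gave it the widest spread of the 10 genes, 3.31-fold between the highest and the lowest library (chi-square test, adjusted p = 4.49e-192). Tet1 (chr10:62804570-62908996, minus strand) had 0.90, 1.06 and 0.91 from 20, 32 and 34 counts. The TPM values lay close together, but the effective length was 2070 in library 1 and 3409 and 3615 in libraries 2 and 3. The log2 ratio of library 1 to the mean of libraries 2 and 3 was -0.13 by TPM. By counts scaled to library totals alone it was -0.84. No difference in the counts was detected over the 3 libraries (chi-square test, adjusted p = 0.0855). Libraries 1 and 2 differed when library 3 was left out (chi-square test, adjusted p = 0.0437). With so few counts, this does not show that Tet1 was stable between libraries.

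Tet2 made up 72.6%, 55.0% and 59.4% of the summed Tet TPM and Tet3 25.7%, 44.0% and 39.6%. The ratio of Tet2 to Tet3 was 2.82 in library 1 and 1.25 and 1.498 in libraries 2 and 3. Tet2 led in all libraries by gene TPM. By complete coding transcripts the order turned in libraries 2 and 3, where Tet3 had 17.36 and 18.00 TPM and Tet2 15.70 and 15.40, while in library 1 they had 4.18 and 7.80. Tet1 contributed between 0.986% and 1.72% of the gene TPM.

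Mbd2, a methyl-CG reader and NuRD subunit on chromosome 18 (70568189 to 70626131 on GRCm38, plus strand), had TPM values of 553.99, 372.11 and 377.50. Library 1 was the highest, as for Dnmt3a. The counts of 7990, 4618 and 5488 differed over the 3 libraries (chi-square test, adjusted p = 1.02e-140) and between libraries 2 and 3 alone (chi-square test, adjusted p = 0.00228). Mbd1, a reader that also has CXXC zinc fingers (74267605 to 74282732 on the same chromosome, plus strand), had 32.56, 41.96 and 38.85, a mean of 37.8 ± 4.79 (SD, n = 3). Its 1009, 1022 and 1141 counts differed (chi-square test, adjusted p = 0.000572), but this call was lost with TMM library sizes (chi-square test, adjusted p = 0.0958). In the separate whole-number count tables Mbd1 had 472, 435 and 471 counts of totals of 5104745, 5047736 and 5278506, so there its share was highest in library 1. Mbd2 had 1767, 1490 and 1601 counts there, also highest in library 1 but by less than in its expected counts (chi-square test, adjusted p = 1.21e-05). Mbd2 was 17.0-fold above Mbd1 in library 1 and 8.87-fold and 9.72-fold above it in libraries 2 and 3, and by complete coding transcripts 23.6-fold, 17.6-fold and 17.5-fold.

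Of the 10 genes, 8 had counts that differed between libraries beyond counting error, against 75.8% of all 13177 genes tested, so the share was near the background. Uhrf1 and Tet1 did not pass. Of the 10 tested, 6 were called and lowest in library 1 (Dnmt1, Dnmt3b, Tet2, Tet3, Uhrf2 and Mbd1), beside 40.2% of all tested genes. A further 2 of the 10, Dnmt3a and Mbd2, were called and highest in library 1, beside 32.9% of all tested genes. When the test was divided by the median overdispersion over all genes, 19.9, it called 4 of the 10 (Tet2, Tet3, Uhrf2 and Mbd2) and 21.6% of all genes. Between libraries 2 and 3 alone it called 3 of the 10 (Dnmt1, Dnmt3a and Mbd2) and 16.7% of 12468 genes.

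The size of the spread was also ordinary. The median ratio of highest to lowest TPM was 1.56 over the 10 genes and 1.64 over all genes tested. By effective length, Dnmt1, Tet2, Tet3 and Uhrf1 were in the longest of the 4 groups, Dnmt3a, Dnmt3b, Uhrf2 and Mbd1 in the next and Mbd2 in the one after. The log2 ratio of library 1 to the mean of libraries 2 and 3 was -1.59 for Tet3, -1.44 for Dnmt3b and -0.87 for Uhrf2, and 0.57 for Dnmt3a and 0.56 for Mbd2. The part of length in these differences was not tested.

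**Figure D2:**
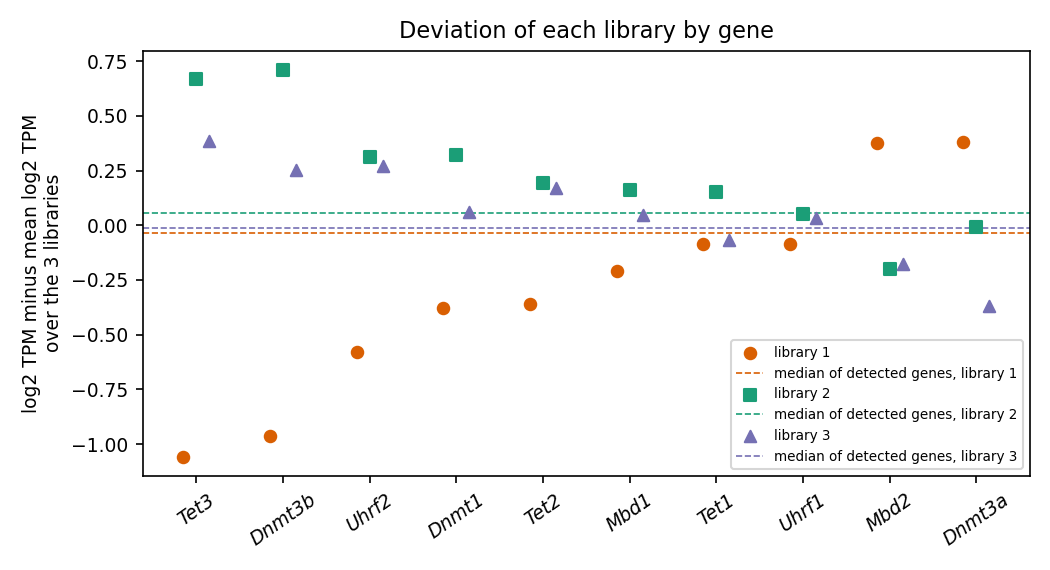
Log2 TPM of each gene in each library minus the mean log2 TPM of that gene over the 3 libraries. Points are libraries and dashed lines are the medians over 11694 detected genes. Library 1 is below both other libraries for 8 genes, from -1.06 for Tet3 to -0.08 for Tet1 and Uhrf1, and above them for Mbd2 and Dnmt3a, while the dashed lines lie within -0.04 and 0.06.

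A gene's TPM sums transcripts of different kinds. Transcripts were therefore put in 4 classes from the annotation: complete coding, coding with an incomplete end, retained intron, and other. The deposited transcript tables share reads among overlapping transcripts, so these are estimates. Over 6191 detected protein-coding genes with an annotated retained-intron transcript, complete coding transcripts held a median of 68.6% of the gene's TPM and retained-intron transcripts 13.1%.

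Uhrf2 had the highest retained-intron share of the 10 genes. Such transcripts held 70.8%, 69.7% and 70.8% of its TPM in libraries 1, 2 and 3, a share that 2.97% of the 6191 genes reached. Its single complete coding transcript, Uhrf2-201, held 29.5% ± 0.648 (SD, n = 3), which is a TPM of 53.3, 102.79 and 96.16. The share hardly moved between libraries although the level in library 1 was the lowest. The leading transcript by TPM, Uhrf2-202, held 35.06%, 38.58% and 40.7%, and Uhrf2-206 held 16.76%, 15.21% and 13.02%. By expected counts, which weigh long transcripts more, Uhrf2-201 led in every library, with 43.5%, 45.8% and 45.3% against 21.2%, 23.7% and 25.6% for Uhrf2-202.

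Uhrf2-202 and Uhrf2-206 share exon 2 and the start of exon 3 with Uhrf2-201 and stop inside its intron 3, which is 14748 bases long. Exon 1 of Uhrf2-206 is that of Uhrf2-201, while exon 1 of Uhrf2-202 starts 76 bases later and is 301 bases long instead of 419. Uhrf2-202 runs 669 bases past exon 3 of the 16 exons of Uhrf2-201, and Uhrf2-206 runs 2318 bases past it. The exons before this point hold 26.9% of the coding bases of Uhrf2-201. The step is shown at chr19:30056435-30056554 on GRCm38, plus strand, with 60 exon bases in capitals and 60 intron bases in lower case, because reads across it separate the coding transcript from both others.
Uhrf2 exon 3 into intron 3: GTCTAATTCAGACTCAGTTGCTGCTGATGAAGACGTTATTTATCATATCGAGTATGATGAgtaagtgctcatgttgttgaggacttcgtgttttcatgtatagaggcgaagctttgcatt
Together these transcripts held 51.8%, 53.8% and 53.7% of Uhrf2 TPM. Uhrf2-202 has no base that Uhrf2-206 lacks, although its first splice junction is its own. Uhrf2-206 has 1649 bases that no other Uhrf2 transcript holds, and the reads that decide the split are not listed separately.

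**Figure D3:**
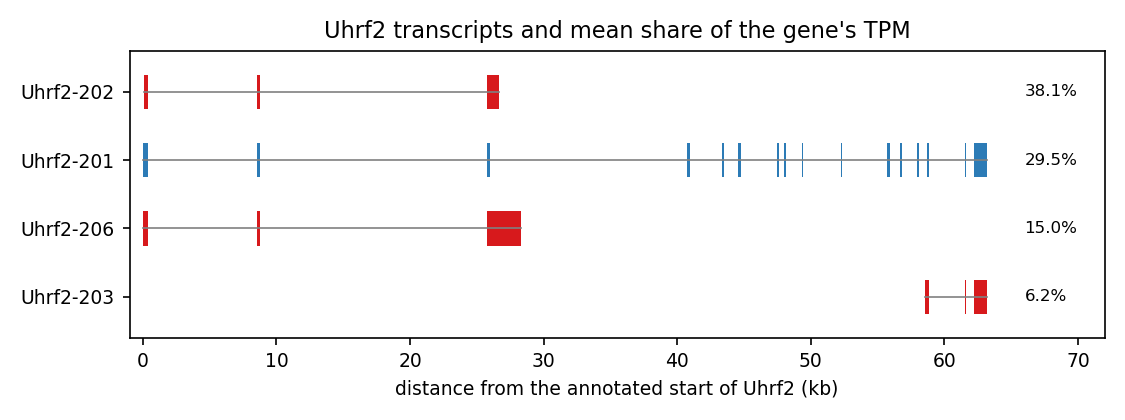
Exons (boxes) of the 4 Uhrf2 transcripts with the highest shares, by distance in kb from the annotated start, with each transcript's mean share of Uhrf2 TPM over 3 libraries at the right. Blue marks the complete coding transcript and red retained-intron transcripts. Uhrf2-202 (38.1%) and Uhrf2-206 (15.0%) end in intron 3, and Uhrf2-201 (29.5%) spans the gene.

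Mbd2 kept a larger coding share. Complete coding transcripts held 63.4% ± 2.36 of its TPM (SD, n = 3), nearly all of it Mbd2-201 at 60.4%, 63.6% and 64.2%. In TPM this was 336, 239 and 246, so library 1 stayed the highest. A retained-intron transcript of 494 bases, Mbd2-204, held 32.8%, 25.9% and 27.5%.

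Counted by complete coding transcripts alone, the order of the genes changed in the middle. Mbd2 led with a TPM of 274 ± 54.2, followed by Uhrf2 at 84.1 ± 26.9 and Dnmt1 at 39.1 ± 8.34 (SD, n = 3). Mbd1, Tet3, Tet2 and Dnmt3a came next, with means of 14.0, 13.2, 13.0 and 10.4, and their ranges overlapped between neighbours. Complete coding transcripts held 89.2% ± 2.36 of Dnmt1 TPM and 84.6% ± 10.4 of Uhrf1 TPM (SD, n = 3). For Dnmt3a and Tet2 this share was 25.5% ± 1.36 and 25.6% ± 4.40 (SD, n = 3). Coding transcripts with an incomplete end held a further 43.9% in Dnmt3a and 26.9% in Tet2, where retained-intron transcripts held 44.4%. By expected counts the complete coding Dnmt3a-201, Dnmt3a-205 and Dnmt3a-218 held means of 21.4%, 15.7% and 18.7% of Dnmt3a. Tet2-201 and Tet2-204 held 66.5% and 5.59% of Tet2 in the same way.

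**Figure D4:**
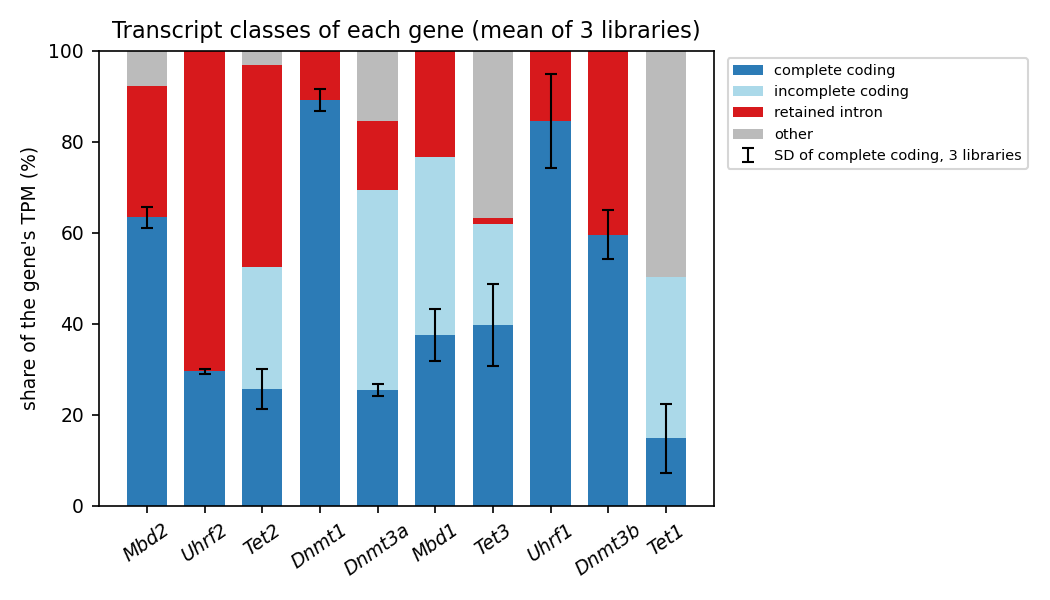
Share of each gene's TPM, in percent, by transcript class, as the mean of 3 libraries in stacked bars. The error bar is the SD of the complete coding share. Uhrf2 is mostly retained intron (70.5%), Dnmt1 mostly complete coding (89.2%), and Dnmt3a and Tet2 reach 25.5% and 25.6% complete coding.

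The leading transcript by TPM was short in some genes and long in others. Tet2-205, a 423-base coding fragment, led Tet2 in libraries 2 and 3 and held 26.9% ± 6.36 of its TPM (SD, n = 3) but 3.10% of its expected counts, because TPM weighs a read by transcript length. The complete coding Tet2-201 held 23.4% of the TPM and 66.5% of the counts. Mbd1-204, an incomplete coding transcript of 3920 bases and the longest of Mbd1, led Mbd1 in all libraries with 39.2% ± 1.97 (SD, n = 3). It also held 53.9% of the expected counts of Mbd1. The leading transcript changed between libraries for Dnmt3a, Dnmt3b, Tet1, Tet2 and Uhrf1, and the share of all genes where it changed is not given here. Dnmt3a-205 led Dnmt3a in library 1 with 21.54% and Dnmt3a-206 in libraries 2 and 3 with 22.05% and 22.84%, and Tet2-203 led Tet2 in library 1 with 33.61%. Dnmt3b-203 led in library 1 with 42.48% and was listed at 0 in the others, where Dnmt3b-209 (49.55%) and Dnmt3b-206 (43.32%) led. None of these 3 Dnmt3b transcripts has a base of its own, and the order among them carries no weight here. Neither Dnmt3a-206 nor Uhrf1-204, which led Uhrf1 in libraries 1 and 2, has a base of its own. The Tet1 leader in library 3, Tet1-208, had 1.84 expected counts there. The changes of leader in Tet1 and Uhrf1 carry little weight as well.

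Dnmt1 had complete coding transcripts from its far upstream start and from the downstream group, whose windows are printed above. Dnmt1-201, the somatic form of 1620 codons, held 55.25%, 52.34% and 55.63% of Dnmt1 TPM. Dnmt1-202 has 1501 codons and starts at the window with 2 CG, and a form from an upstream exon that lacks the first residues is known from oocytes. It held 35.36%, 33.28% and 33.51%, a share that hardly differed between libraries. In TPM this was 11.72, 17.89 and 15.06, from 655, 825 and 811 expected counts. Of its 5248 bases, 156 are in no other Dnmt1 transcript, so its share rests on the reads there, which the tables do not list separately.

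Dnmt3a is known in a long form and a shorter form that starts within the gene. The complete coding transcripts of the upstream start, with a TPM of 2.61, 5.06 and 4.08, were lowest in library 1. Those of the downstream start, of 689 codons, had 11.04, 5.08 and 3.24 and were highest in library 1. The downstream start thus gave 80.9% of complete coding TPM in library 1 and 50.1% and 44.3% in libraries 2 and 3. Among complete coding transcripts, library 1 was the highest for the shorter form and the lowest for the long one. Over all 6 transcripts of the upstream start, incomplete ones included, TPM was 27.73, 22.70 and 19.21, with library 1 the highest, so the direction at that start turns with the transcripts counted. In expected counts the downstream transcripts had 270, 103 and 76.6 and the upstream ones 263, 416 and 379. All of the downstream TPM was assigned to Dnmt3a-205, which has 16 bases that no other Dnmt3a transcript holds.

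Tet3 has a long form, Tet3-203 with 1803 codons, that carries a CXXC domain, and a shorter form, Tet3-202 with 1668 codons. Tet3-203 had a TPM of 1.56, 8.80 and 9.25, and Tet3-202 had 2.62, 8.56 and 8.75. Both were low in library 1 and alike in libraries 2 and 3. The transcript with the largest share of Tet3 TPM was a processed transcript with no coding sequence, Tet3-201, at 36.8% ± 2.67 (SD, n = 3).

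**Figure D5:**
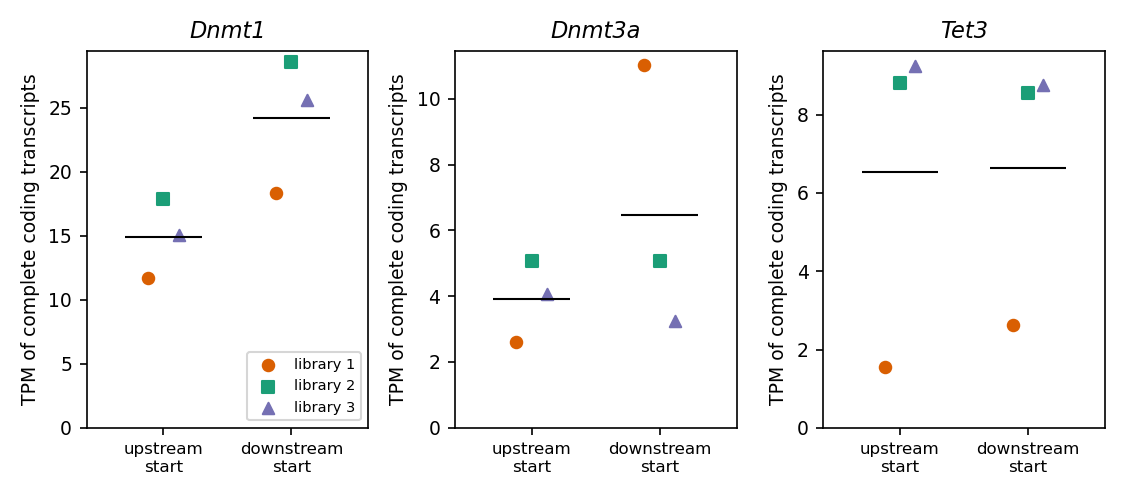
TPM of complete coding transcripts by annotated start, upstream or downstream, for Dnmt1, Dnmt3a and Tet3, with 1 point per library and a bar at the mean of 3 libraries. Library 1 is the lowest at every start apart from the downstream start of Dnmt3a, where it is the highest at 11.04.

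Overlapping genes could share reads with these genes, since whether strand was used in counting is not given. The antisense genes Dnmt3aos, Dnmt3bos and Gm42567 and the opposite-strand B230319C09Rik had 3, 0, 0 and 1 counts over the 3 libraries. On the same strand, 5430434F05Rik within Tet3 had 50.9, far below the 4206 counts of Tet3. The processed pseudogene Dnmt3a-ps1 was listed at 0 in each library.

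The other genes of the pathway were mostly expressed. Of 56 further genes, 50 were detected, and of the 51 tested 44 differed between libraries, 22 highest and 22 lowest in library 1, beside the 75.8% of all genes. All 8 genes listed as other readers were detected and 6 of 8 passed the test. Among the highest were Mbd3, the alternative to Mbd2 in NuRD, at 84.2 and Zbtb38, a zinc finger reader, at 31.7. Mbd2 stood above both in every library.

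Of 14 regulators and cofactors of the Dnmt enzymes, 9 were detected. Of the 10 tested, 9 differed between libraries, beside 75.8% of all genes tested. Pcna, the replication clamp, stood at 166, Cxxc1, a reader of unmethylated CG, at 109 and Usp7, a deubiquitinase that binds Dnmt1 and Uhrf1, at 100.1. Dnmt3l, Dppa3, Zfp57, Cxxc4 and Cxxc5 were not detected. Dppa3 and Zfp57 had no count, while Cxxc5 had a mean TPM of 1.67.

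Genes that act after the Tet enzymes were present. Of 12 genes of active demethylation and base excision repair 11 were detected. All 11 tested differed between libraries, 6 highest and 5 lowest in library 1, beside 75.8% of all genes tested that differed. Gadd45b, a stress-induced gene linked to demethylation, stood at 389 ± 181 (SD, n = 3), with 181.51, 512.48 and 472.86. Ogt, the O-GlcNAc transferase that binds Tet2 and Tet3, stood at 194, and Tdg, the glycosylase that removes oxidised methylcytosine, at 84.3.

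All 11 genes that supply the methyl donor or 2-oxoglutarate were detected, and 7 differed between libraries, beside 75.8% of all genes tested. Mat2a, which makes S-adenosylmethionine, stood at 463, its regulatory subunit gene Mat2b at 206 and Idh3a at 95.9. All 11 NuRD genes were detected and all differed, beside the same 75.8%. Rbbp4 stood at 217, Rbbp7 at 192 and Mta2 at 188. Mbd2, which joins this complex, was above each of them in every library.

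Uhrf1 and Dnmt1 are known to rise with proliferation, so cell cycle genes are given beside them. Of 22 such genes 16 were detected. The median TPM of these was 18.0 beside 24.1 over all detected genes, and over all 22 the median was 6.03. Of the 20 tested, 11 differed between libraries, beside 75.8% of all genes tested. Mki67 had a mean TPM of 0.670 and Mki67, Ccna2, Ccnb1, Birc5, Plk1 and Cdc6 were not detected, whereas Mcm6 stood at 79.8 and Mcm4 at 60.02. Uhrf1, at 5.35, lay near the median of the 22 and Dnmt1, at 44.0, above it.

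Among 9899 other detected protein-coding genes, those nearest to Dnmt1 by the largest difference in log2(TPM + 1) over the 3 libraries were Ncoa4 (0.04), Map3k11 (0.05) and Itprip (0.07). Those nearest to Tet2 were Traf7 (0.02), Vdac1 (0.04) and Ep400 (0.04). Nearest to Mbd2 were Gnb1 (0.10), Psme2 (0.10) and Ostf1 (0.11). With 3 libraries this measure mainly matches levels and the step between library 1 and the others.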

How the data were processed

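PolyA-selected RNA was sequenced in 3 libraries of 1 biosample. Per the file headers and labels, the deposited gene and transcript tables are on mm10 (GRCm38) with GENCODE M21 annotation. Reads that match several transcripts are split among them in the deposited expected counts. The deposited TPM and FPKM values were scaled within each library by the authors, and FPKM was not used for results. The deposited percent values (IsoPct) give a transcript's share of its gene. The authors also deposited whole-number counts on GENCODE M4 without a header. The aligner, quantifier and strand setting are not stated in the sources at hand. The deposited tables hold 81881 rows, of which 55536 carry an Ensembl ID, and other rows were left out of library sizes.

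Expected counts were rounded, and each gene with 30 or more was compared across libraries by Pearson's chi-square test against the library totals, with Benjamini-Hochberg adjustment over all 13177 genes tested and a threshold of 0.05. With 1 group no edgeR quasi-likelihood test was possible. Scaling by edgeR 4.0.16 (TMM) and DESeq2 1.42.0 (size factors), other count filters, the whole-number counts and leaving out each library were tried. This test accounts for counting error alone, and the tables carry no molecular identifiers. Depth was 15303615 to 17474991 expected counts. The test was checked on simulated counts that carry counting error alone. They lack the median overdispersion of 19.9 found here, so that check does not give the error rate in these data. Python 3.11.15, pandas 2.3.3, scipy 1.17.1 and R 4.3.3 were used. Start windows and their letters are from RefSeq (GRCm38.p6), and exon sequence and coordinates from GRCm38 with GENCODE M21.

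Named were all 10 genes, their transcripts at a mean share of at least 10% or leading in a library, the 3 highest and the undetected genes of each pathway list, and the 3 genes most like Dnmt1, Tet2 and Mbd2. Mcm4, Mcm6 and the genes overlapping the 10 were named after their values were seen. Some genes that this rule names are not reported here. The 10 genes and all lists were chosen with earlier results of these data known.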

Additional observations from a re-analysis of the deposited data

How the results depend on the processing

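Of the 10 genes, 8 differed between libraries, beside 75.8% of all genes tested. This count was 4 after division by the median overdispersion, beside 21.6% of all genes. It was 3 without library 1, beside 16.7%, and 8 without library 2 or without library 3, beside 74.6% and 73.5%. For the other pathway genes the count of 44 of 51 tested became 19 with the overdispersion and 9 to 43 with a library left out, again lowest without library 1. The same shares of all genes stand beside these counts. TMM library sizes, DESeq2 size factors and the whole-number counts each called 7 of the 10, without Mbd1. Beside this they called 75.8%, 75.8% and 68.4% of all genes tested. Scaled without mitochondrial, ribosomal and unannotated rows, mean TPM was 1.07 for Tet1 and 6.002 for Uhrf1. By expected counts, which weigh long transcripts more, Dnmt1 made up 67.2% of its family and Mbd2 84.5%. With complete coding transcripts alone, an alternative chosen after seeing the data, the family shares were 75.2% for Dnmt1, 52.6% for Tet2, 94.5% for Uhrf2 and 95.04% for Mbd2. The leading transcript's share of expected counts was 60.1% for Dnmt1, 6.64% for Dnmt3a, 4.41% for Dnmt3b, 3.10% for Tet2, 20.8% for Tet3, 23.5% for Uhrf2, 53.9% for Mbd1 and 86.4% for Mbd2. The other 107 values under an alternative kept within the spread or within 1.5 times the count. The expected counts of all genes in both tables were a median of 1.93 times the whole-number counts, and 3.72 times for Mbd2, 2.74 times for Uhrf2 and 1.24 times for Dnmt1, and the cause was not tested. No paired analysis was possible because the libraries form 1 group. Depth limits Tet1, with 86 counts in all, and Dnmt3b, with 286.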
